A study of Chlamydomonas reinhardtii with 18 samples.

Results

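The comparison described here follows cultures of the green alga *Chlamydomonas reinhardtii* that had received nitrite, from 3 h to 24 h after its addition. The 3 libraries titled for treatment at 24 h were set against the 3 titled for treatment at 3 h, which makes 6 of the 18 libraries of the series, and all 17766 gene rows of the count tables entered. The cells, strain 6145c, grew and were treated in darkness at 25 °C. Nitrite was given to the 3 treatment flasks at 10 mM, and 3 control flasks, equally dark, were given none. Both arms were also sampled at 15 min, and the 3 h and 24 h control libraries (3 each) serve here as the same interval without nitrite. The design text makes the flasks the replicates, so each library of a group stands for its own culture. Both sets of flasks were sampled at all times, and the labels do not say that a replicate number marks the same flask throughout. The labels name no batch, light intensity, medium or cell density, and they tie all results to 1 strain.

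Nitrite is an intermediate of nitrate assimilation that the plastid enzyme nitrite reductase turns into ammonium, which is then built into glutamine and glutamate. It can also be reduced to nitric oxide, and a cytochrome P450 of the alga can reduce nitric oxide further to nitrous oxide, the gas in the study's title. In the dark the alga makes chlorophyll by a light-independent route, carries out no photosynthesis, and lives on its starch or on acetate where the medium supplies it. Acetate enters metabolism through the glyoxylate cycle.

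Sequencing of polyadenylated RNA gave 7669176 to 8453971 reads in genes in the 6 libraries. After removal of 4202 gene rows with few reads, 13564 were tested. Levels are given in CPM, counts scaled to a common library size, with TMM factors that correct for the make-up of each library. Changes are log2 fold changes of 24 h over 3 h, with an approximate standard error (SE). The SE was back-calculated, as the size of the change divided by the square root of the test's F statistic. It is unreliable where a group has almost no reads or the change is close to none. A gene is said to have risen or fallen where edgeR's quasi-likelihood test gave a Benjamini-Hochberg adjusted p under 0.05 over the 13564 genes. Each library holds the RNA of a whole culture, and CPM is relative within a library. The amount of RNA per cell and the number of cells therefore cannot be read from these levels.

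Some libraries went against their labels. On the second principal component the library labelled nitrite 3 h number 2 lay at 46.2, beside the nitrite 15 min libraries 1 and 3 at 43.4 and 42.5, while nitrite 3 h numbers 1 and 3 lay at -13.4 and -15.6. The library labelled nitrite 15 min number 2 lay at -12.4. In the library labelled control 3 h number 3, 36.5% of reads had more than 1 alignment, against 16.7% to 21.6% elsewhere. No library was moved or dropped. Values without these 3 libraries, or without nitrite 3 h number 2 alone, stand beside the lists and genes whose calls they move.

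Between 3 h and 24 h with nitrite, more of the tested genes were called as changed relative to the typical gene than were not called. In all, 7825 genes passed the test, which is 57.7% of those tested. Of these, 3671 rose (27.1%) and 4154 fell (30.6%). The changes were large as well as numerous. The median size among the called genes was 1.40 on the log2 scale, 2374 genes had risen and 3212 had fallen by at least 2-fold, and 667 and 1488 by at least 4-fold. For 7489 of the called genes, or 95.7%, the 3 libraries of 24 h did not overlap the 3 of 3 h, whereas 8566 of all genes tested were without overlap. Most of the called genes without overlap had also left the range of the 15 min nitrite libraries, 94.9% of those that rose and 94.2% of those that fell. Since nitrite 3 h number 2 lay beside 15 min libraries, these criteria are not independent. The share over all genes tested was not taken. Without nitrite 3 h number 2 the test called 7589 genes, and without the 3 libraries that stand apart 8335.

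These directions are relative to the scaling. With TMM the median log2 change of all genes tested was -0.07. With library totals alone it was -0.73, and the 7508 genes then called split into 1360 that rose and 6148 that fell, so 18.1% of calls were rises, against 46.9% with TMM. Changes are therefore given relative to the typical gene. The TMM factors were 1.028 to 1.247 at 3 h and 0.660 to 0.822 at 24 h. Summed levels of lists given below carry these factors and were not taken with library totals alone.

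Fewer genes had reads at 24 h, and more stood at high levels. Genes with at least 1 read numbered 15306 to 15561 in the libraries of 3 h and 14632 to 14790 in those of 24 h, ranges that did not overlap. In the controls they overlapped, at 14757 to 15408 and 15007 to 15071. That overlap came from control 3 h number 3, the library rich in multiple alignments, at 14757. Control 3 h numbers 1 and 2, at 15408 and 15215, lay above every control library of 24 h. With the lower TMM factors of 24 h in the nitrite arm, a gene of given CPM had fewer reads there. Detection at equal depth was not taken. At the upper end, 480 to 650 tested genes stood at 100 CPM or more at 3 h and 789 to 815 at 24 h. In the controls these counts were 491 to 545 and 566 to 600, also without overlap. They rest on TMM-scaled CPM, with lower factors at 24 h in the nitrite arm, and were not taken with library totals alone. The share of reads taken by the 100 most abundant genes overlapped between the times, at 63.2% to 71.7% and 67.4% to 71.5%, and that of the most abundant gene was lower at 24 h, 3.37% to 3.69% against 4.09% to 4.42%. Among genes in the lowest of 4 equal classes by mean level, 15.7% rose and 33.9% fell, and in the highest class 41.9% rose and 25.9% fell. The median log2 change climbed over the classes from -0.50 through -0.18 and 0.02 to 0.28. The share that rose also climbed in the control arm, from 11.6% to 31.2%, while the share that fell stayed between 21.4% and 22.3%. CPM is not corrected for gene length, so the classes mix level and length. The mean level also includes the libraries compared, so a rise moves a gene toward a higher class and a fall toward a lower one. The trend over the classes is therefore partly built in, and classes set on other libraries were not taken.

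**Figure D1:**
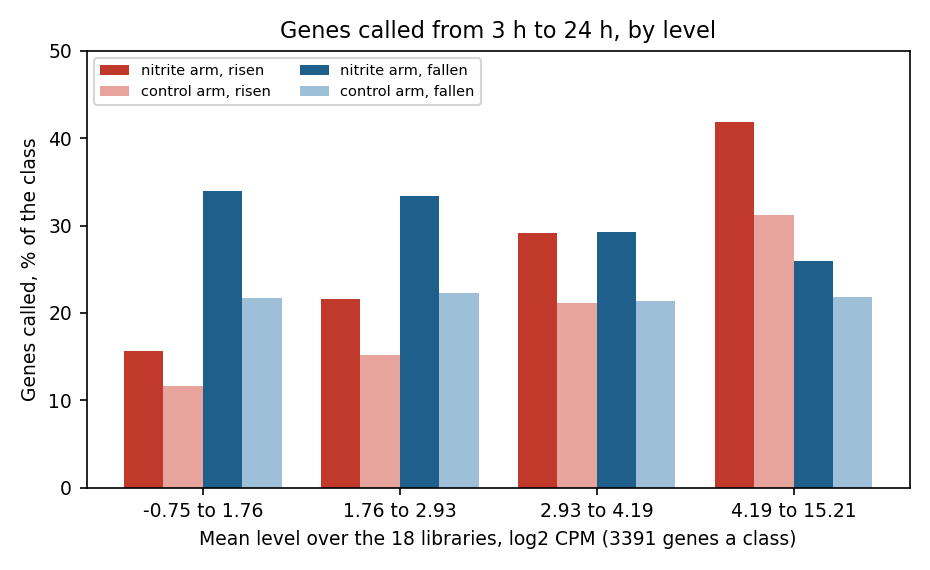
Share of genes called as risen or fallen from 3 h to 24 h (vertical axis, % of the class) in 4 classes of 3391 genes by mean log2 CPM over the 18 libraries (horizontal axis), for the nitrite and the control arm. In the nitrite arm risen genes go from 15.7% in the lowest class to 41.9% in the highest, and fallen genes from 33.9% to 25.9%. The mean level includes the libraries compared, so the trend is partly built in.

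Loss of detection was more frequent than gain. There were 42 tested genes with no read in the 3 nitrite libraries of 24 h and at least 30 reads in those of 3 h, and 1 with the opposite pattern. The same counts were 6 and 4 in the control arm. With nitrite, the lower TMM factors of 24 h leave fewer reads for a gene of given CPM, which favours zeros at that time. The control factors were 0.605 to 1.32 at 3 h and 0.923 to 1.08 at 24 h. The counts are thus mixed with depth, and their contrast between the arms at equal depth was not tested. Of the 42 genes, 39 still had reads in the control libraries of 24 h, and 34 had fallen there too. Counting error alone limits these zeros: 0 reads allow up to 3 reads over the group.

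The extremes of the comparison were gene rows to which neither the tables nor the reference give a name. Cre06.g269700 (assembly v5.5, chromosome 6, 2610966 to 2616181) stood at 0.107, 0 and 0 CPM at 3 h and at 15.1, 12.9 and 13.7 CPM at 24 h. That is 1 read against 247, a ratio of 387 with an exact 95% counting interval of 68.8 to 15344, and the change was 8.08 (SE 0.74, edgeR adjusted p = 2.13e-07). The gene thus went from next to no reads to a clear signal in all 3 flasks. It also rose in the control arm, by 5.43, a call that is lost without control 24 h number 3 (edgeR adjusted p = 0.0675). That control change was fitted from 0 reads at 3 h and 15 reads at 24 h, at 0.131, 0.249 and 1.64 CPM. These 24 h levels lay below those with nitrite, and the difference of 2.65 was not called. Its back-calculated SE of 12.29, beside 0.74 and 1.58 for the nitrite and control arms, is not a usable measure of its spread.

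Cre06.g292315 (chromosome 6, 6412147 to 6413598) went from 0.536, 0.191 and 0.370 CPM to 85.0, 80.6 and 71.9 CPM. The libraries of both times were far apart, and the change of 7.72 (SE 0.43, edgeR adjusted p = 2.33e-11) had a counterpart of 7.14 in the control arm. Of the 12 largest rises, 7 lay on chromosome 6, which holds 1190 of the 13564 tested genes and 23 of the 210 rises of at least 8-fold. All 12 were also rises in the control arm, and the change differed between the arms for 2.

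Among the falls, Cre24.g755997, on a sequence not placed on a chromosome, went from 21.9, 196 and 33.3 CPM to 0.179, 0.170 and 0 CPM. Its high library at 3 h was the one labelled number 2, and at 15 min numbers 1 and 3 were the high ones, at 273 and 222 CPM against 19.2 for number 2. The reads fell from 2525 to 2, a ratio of 806 with an exact 95% counting interval of 223 to 6658. The fitted change was -9.36 (SE 1.46, edgeR adjusted p = 4.42e-05), or -7.74 without the 3 libraries that stand apart. Cre15.g635100 (chromosome 15, 174383 to 180224) stood at 10.7, 6.12 and 8.40 CPM at 3 h and had 0 reads at 24 h, at least 49.4-fold lower with 3 reads over the group as the floor. It fell in the control arm as well, from 205 reads to 7. All 12 of the largest falls were also falls without nitrite, 11 of the 12 had 0 reads at 24 h, and none of the 12 differed between the arms by the test. With 0 reads that test has little to decide by. The difference of Cre15.g635100 was -4.34, and its back-calculated SE of 3.06, beside 1.51 and 0.86 for the nitrite and control arms, is unreliable. The lack of calls therefore does not show that these genes fell alike in both arms.

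Most of the change with nitrite had a counterpart without it. The control arm had 5637 genes called over the same interval, 41.6% of those tested, with 2681 up (19.8%) and 2956 down (21.8%). Both arms called 2227 genes as risen, which is 60.7% of the risen genes of the nitrite arm and 83.1% of those of the control arm. Another 2501 fell in both, 60.2% and 84.6% of the fallen genes. Opposite calls were few, with 19 genes up with nitrite and down without and 2 the other way. Across the 13564 genes the log2 changes of both arms correlated with Pearson's r of 0.85, a description across genes that share a scaling but no library.

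The nitrite arm tended to move further. Of the genes it called, 94.1% had the same sign in the control arm and 85.4% had the larger size with nitrite. Genes called in both arms had a median size of 1.70 with nitrite and 1.26 without. Choosing genes by the nitrite test favours larger sizes there, so the test of the difference itself decides for a single gene. That test called 750 genes (5.53%), 415 with a more positive change in the nitrite arm (3.06%) and 335 with a more negative one (2.47%). A further 1425 genes rose and 1651 fell by the nitrite test alone, and the difference between the arms passed for 172 and 148 of these. Among genes that rose in both arms 193 rose further with nitrite, and among those that fell in both 170 fell further.

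The count of differences leaned on single libraries and on scaling. It ran from 393 without control 24 h number 2, 406 without control 24 h number 1, 445 without nitrite 24 h number 1 and 471 without control 3 h number 2 to 1160 without control 3 h number 1, and was 1337 without the 3 libraries that stand apart. With library totals in place of TMM it was 1131, of which 42 were more positive with nitrite and 1089 more negative.

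**Figure D2:**
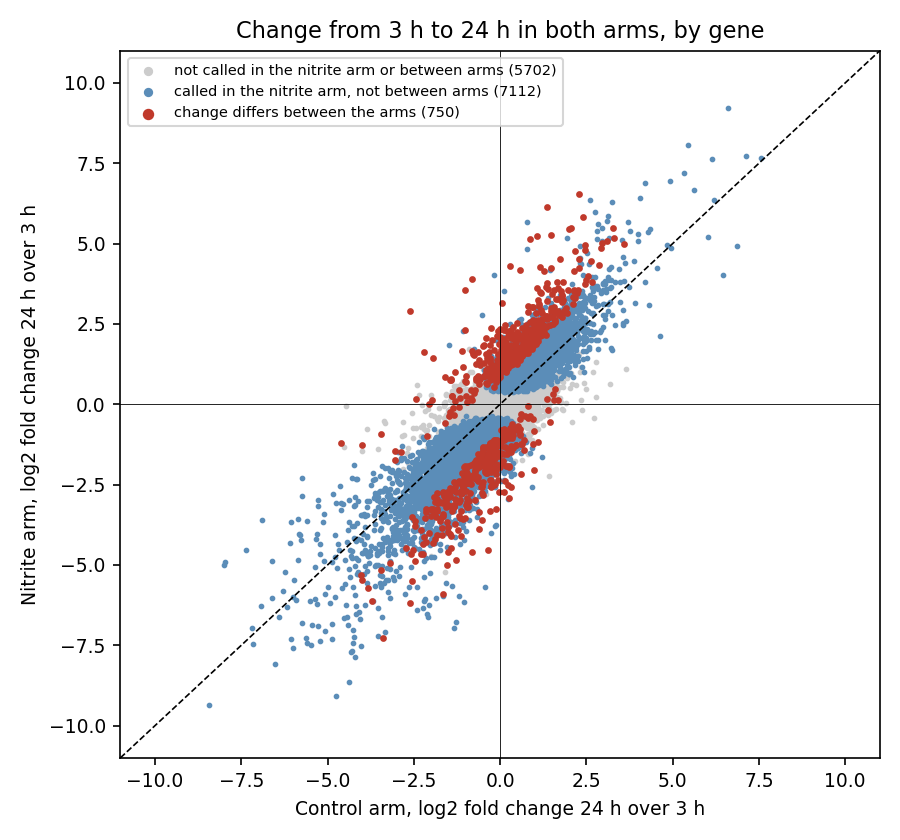
Log2 fold change from 3 h to 24 h in the control arm (horizontal axis) and in the nitrite arm (vertical axis), 1 point per tested gene; the dashed line marks equal change. Most points lie along the line (r = 0.85), and the 750 genes in red are those whose change differed between the arms.

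Functions can be given only for lists of loci entered from prior knowledge of the alga, since the tables and the reference carry identifiers without names. The 19 lists hold 168 loci, of which 155 had enough reads to test. Of these, 35 rose, 81 fell and 39 were not called, against 27.1% risen and 30.6% fallen over all genes tested. The change differed between the arms for 8 of the 155, or 5.16%, next to 5.53% of all genes. Members with close sequence relatives, as among light-harvesting proteins, the small subunits of Rubisco and tubulins, may have lost reads to multiple alignment, and their levels are uncertain.

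**Figure D3:**
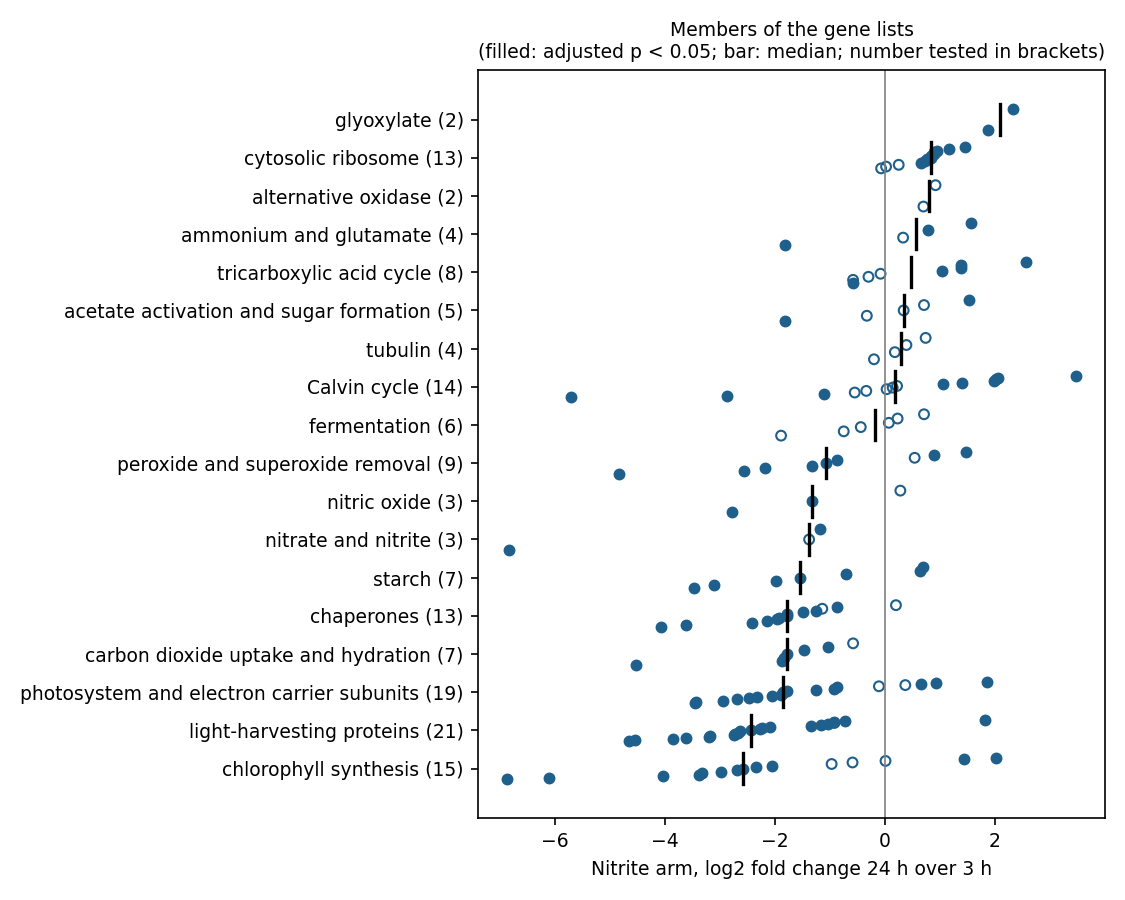
Log2 fold change from 3 h to 24 h in the nitrite arm (horizontal axis) for each tested member of the gene lists (vertical axis, ordered by median); filled points passed the edgeR test, open points did not, and bars mark the list's median. Medians run from -2.59 for chlorophyll synthesis to 2.10 for the glyoxylate list, with -0.07 for all genes tested.

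Among transcripts of nitrogen metabolism, nearest to the added nitrite, those for its entry were low or fell. The nitrate and nitrite list holds transporters and reductases of both ions. Of its 7 loci, 4 had too few reads to test (3 to 45 reads over all 18 libraries), 2 of the 3 others fell and none rose, with a median log2 change of -1.38. Its summed level was 10.0 to 13.1 CPM at 3 h and 3.58 to 4.88 CPM at 24 h. In the controls the same sums were 5.69 to 18.1 and 6.27 to 9.82 CPM.

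Within that list, Cre09.g410800 stood at 2.57, 0.574 and 2.22 CPM at 3 h and had no read at 24 h, at least 10.2-fold lower (48 reads against a floor of 3). The control arm fell by 4.86 on the log2 scale. Cre03.g177700 went from 9.11, 7.56 and 10.4 CPM to 3.77, 3.41 and 4.57 CPM, a change of -1.19 (SE 0.48, edgeR adjusted p = 0.0427). Its groups did not overlap, yet the call was lost in 5 of the 6 fits that left out a library. Cre09.g396000 was at 0.494 to 1.91 CPM and then 0.170 to 0.717 CPM, with overlap and no call.

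The nitric oxide list was entered for the cytochrome P450 that reduces nitric oxide and for truncated hemoglobins, oxygen- and nitric oxide-binding proteins. Of its members 2 fell and 1 was not called. Cre01.g007950 (chromosome 1, 1533342 to 1539057) was at 462, 694 and 457 CPM at 3 h and at 178, 216 and 250 CPM at 24 h. Every 24 h library lay below every 3 h library, and the change was -1.32 (SE 0.23, edgeR adjusted p = 4.95e-05). The control arm fell by 0.73 (edgeR adjusted p = 0.014), from 376 to 386 CPM down to 184 to 321 CPM. That control call was lost without control 24 h number 1 or number 2 and with library totals alone (edgeR adjusted p = 0.0944), and the difference between the arms was -0.60 (edgeR adjusted p = 0.289).

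Cre14.g615350 (chromosome 14, 1125856 to 1128338) went from 40.8, 9.86 and 39.1 CPM to 5.38, 3.75 and 3.78 CPM, a change of -2.79 (SE 0.65, edgeR adjusted p = 0.00157). The low 3 h library was again number 2, and without it the fall was still called. Its neighbour Cre14.g615400 (1130388 to 1132606), at 136 to 178 CPM and then 164 to 219 CPM, overlapped between the times and was not called. The change differed between the arms for none of the 3 members.

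Ammonium assimilation into glutamine and glutamate, the step after nitrite reduction, had 2 members up, 1 down and 1 not called in its list of 4. With library totals alone 1 rose and 1 fell (median -0.10). Cre12.g530650 rose from 1250, 888 and 1333 CPM to 2218, 1925 and 1863 CPM, with no overlap (0.79, SE 0.22, edgeR adjusted p = 0.0039). Its reads before scaling were 31732 at 3 h and 35491 at 24 h. The neighbouring Cre12.g530600 rose from 28.4, 12.3 and 25.2 CPM to 61.3, 64.8 and 69.9 CPM, by 1.57 (SE 0.29, edgeR adjusted p = 8.89e-05). Cre13.g592200 was at 11.7, 68.4 and 11.1 CPM and then at 7.89, 11.2 and 6.93 CPM. Its fall of 1.82 rests on the library labelled 3 h number 2, and without the 3 libraries that stand apart the change was -0.38 and not called. Cre02.g113200 stood at 49.8 to 66.6 CPM and then 60.5 to 83.9 CPM with no call in the nitrite arm, while it rose by 1.12 in the control arm. The difference was -0.79 (edgeR adjusted p = 0.0662), and it passed without nitrite 3 h number 2 (-0.91, edgeR adjusted p = 0.0345).

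In carbon metabolism, both members of the glyoxylate list, the enzymes that let acetate be built into sugars and amino acids, rose. Cre06.g282800 (chromosome 6, 5284370 to 5288359) went from 784, 1110 and 1082 CPM to 3836, 3673 and 3478 CPM, a change of 1.88 (SE 0.26, edgeR adjusted p = 2.72e-06). The other member, Cre03.g144807 (chromosome 3, 356536 to 361981) went from 141, 176 and 186 CPM to 836, 813 and 868 CPM, a change of 2.32 (SE 0.23, edgeR adjusted p = 3.35e-08). Neither pair of groups overlapped. Both also rose in the control arm, by 1.20 and 1.76, and the differences of 0.68 and 0.56 did not pass the test (edgeR adjusted p = 0.272 and 0.307).

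The list for acetate activation and sugar formation had 1 of 5 members up and 1 down. Cre02.g141400 rose from 407, 753 and 470 CPM to 1574, 1528 and 1612 CPM, by 1.53 (edgeR adjusted p = 6.55e-05). Cre01.g055408 fell from 44.8 to 59.1 CPM at 3 h to 13.6 to 15.3 CPM at 24 h, by 1.81. In both cases the times did not overlap and the control arm was called in the same direction, by 1.0 and -1.66.

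In the tricarboxylic acid cycle, which oxidises acetyl groups in mitochondria, 4 of 8 members rose and 1 fell (median 0.48). With library totals alone 2 rose and 3 fell (median -0.20). Cre12.g514750 rose from 16.5, 12.4 and 16.3 CPM to 95.4, 80.3 and 93.3 CPM, by 2.57 (SE 0.17, edgeR adjusted p = 1.39e-10). No other member moved as far. Cre06.g264200 and Cre03.g193850 rose by 1.38 each and Cre04.g214500 by 1.03, while Cre06.g254400 fell by 0.59, a call that is lost without nitrite 3 h number 2. The 4 risen members were also called up in the control arm. For Cre12.g514750 the change differed between the arms, by 0.99 (edgeR adjusted p = 0.0159).

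Starch is the carbon store of the plastid, and its list holds enzymes of synthesis and of breakdown. Of 7 members 5 fell and 2 rose (median -1.55), and the summed level went from 406 to 458 CPM to 224 to 291 CPM. Cre07.g336950 fell by 3.48, Cre13.g567950 by 3.11, Cre03.g188250 by 1.99, Cre12.g552200 by 1.55 and Cre06.g282000 by 0.70. Cre13.g567950 shows the pattern most evenly, at 66.7, 52.2 and 60.8 CPM and then 7.35, 6.65 and 6.77 CPM. Cre17.g721500 and Cre03.g155001 rose by 0.70 and 0.63. With library totals alone neither rise was called, and the sign of Cre03.g155001 turned. In the control arm, with TMM, 3 members fell and 1 rose (median -0.50).

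The list for fermentation, by which the alga disposes of electrons without oxygen, had no member called among 6 (median -0.18). The library labelled 3 h number 2 stood apart in it, with a summed level of 1422 CPM beside 532 and 600 CPM in the others of its group and 629 to 657 CPM at 24 h. Without the 3 libraries that stand apart 3 members rose, and without nitrite 3 h number 2 alone 1 rose. Without nitrite, 3 members rose. The 2 loci of alternative oxidase, a mitochondrial oxidase that bypasses the proton-pumping complexes, showed the same dependence. Cre09.g395950 was at 54.9, 120 and 64.6 CPM and then at 143, 116 and 129 CPM, which overlapped (change 0.70, SE 0.32, edgeR adjusted p = 0.0656). Cre03.g169550 was at 0.741 to 2.49 CPM and then 2.83 to 4.09 CPM (0.92, SE 0.39, edgeR adjusted p = 0.0501). Both were called as rises without nitrite 3 h number 2, and without the 3 libraries that stand apart the change of Cre09.g395950 differed between the arms, by 0.93 (edgeR adjusted p = 0.0134).

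The apparatus of photosynthesis, idle in darkness, fell over most of its parts. Light-harvesting proteins bind chlorophyll and pass light energy to the photosystems. Of the 21 loci 19 fell, 1 rose and 1 was not called, with a median of -2.43. Their summed level was 1241, 1308 and 2461 CPM in the libraries of 3 h, number 2 being the high one, and 316 to 425 CPM at 24 h. Without nitrite 3 h number 2, 17 fell and the median was -1.90. In the control arm 18 fell and 1 rose, with a median of -2.44, and no member differed between the arms.

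The largest fitted falls in that list were close to each other. Cre01.g066917 (chromosome 1, 7954526 to 7956348) fell from 415, 898 and 497 CPM to 26.5, 27.8 and 17.3 CPM, by 4.66 (SE 0.40, edgeR adjusted p = 6.42e-09). Cre03.g156900 fell from 9.57 to 18.3 CPM down to 0.511 to 0.630 CPM, by 4.55. Their order turned without the 3 libraries that stand apart, where the changes were -4.25 and -4.74. The one rise was that of Cre02.g110750, from 1.24 to 2.84 CPM up to 6.14 to 8.66 CPM (1.82). A further 3 loci entered for photoprotection by light-harvesting-like proteins had 8 to 42 reads over all libraries and were not tested.

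Of 19 subunits of the photosystems and electron carriers, 14 fell, 3 rose and 2 were not called (median -1.85). Without nitrite 3 h number 2, 12 fell, 3 rose and the median was -1.37. Cre12.g550850 fell by 3.45 and Cre08.g372450 by 3.44. Cre06.g261000 (chromosome 6, 1651220 to 1652875) went the other way, from 1273, 1397 and 1489 CPM to 5411, 5039 and 4518 CPM, a rise of 1.85 (SE 0.33, edgeR adjusted p = 7.84e-05). Its 24 h libraries all lay above its 3 h libraries. In the controls it was at 1025 to 2352 CPM and then 755 to 2006 CPM, with no call. Cre14.g626700 rose by 0.92, from 3114 to 4369 CPM up to 6026 to 7820 CPM, and Cre11.g476750 by 0.66. With library totals alone Cre14.g626700 was not called and the sign of Cre11.g476750 turned. In TMM-scaled CPM the summed level of the list was higher at 24 h, 12822 to 15510 CPM against 7182 to 9691 CPM, although most members fell. This sum was not taken with library totals alone, under which 1 member rose and 15 fell (median -2.55). In the control arm, with TMM, 16 members fell and 1 rose (median -2.31).

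Chlorophyll synthesis had the lowest median of the lists, -2.59, with 10 of 15 tested members down, 2 up and 3 not called. Cre05.g246800 went from 3.00, 0.766 and 1.73 CPM to 0 reads, at least 10.6-fold lower (50 reads against a floor of 3). Cre07.g346050 went from 13.7, 13.4 and 11.4 CPM to 0.359, 0 and 0.157 CPM, 360 reads against 3, a ratio of 76.6 with an exact 95% counting interval of 26.0 to 373. Both were near the limit of detection at 24 h. The rises were those of Cre02.g091050, from 7.46 to 15.1 CPM up to 38.1 to 53.5 CPM (2.02), and Cre12.g498550, described below. The library labelled 3 h number 2 was the lowest of its group for most of these genes, and the summed level, 86.6, 158 and 223 CPM at 3 h, overlapped the 92.4 to 109 CPM of 24 h. Without that library 11 members fell, at a median of -3.03. In the control arm 12 of the 15 tested members fell and 1 rose, at a median of -2.40.

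The Calvin cycle, which fixes carbon dioxide with the products of the light reactions, did not follow the light-harvesting genes. Of 14 members 6 rose, 3 fell and 5 were not called (median 0.18). With library totals alone 5 rose and 5 fell (median -0.51), while of the light-harvesting loci 1 rose and 20 fell. The summed level of the Calvin list, with TMM, went from 16301 to 21593 CPM up to 75889 to 97820 CPM. Cre05.g234550 (chromosome 5, 2060640 to 2063875) held the largest share of that sum at 24 h, with 3881, 3783 and 4304 CPM at 3 h and 51120, 45650 and 36990 CPM at 24 h. Its rise was 11.2-fold by the means, or a log2 change of 3.48 (SE 0.27, edgeR adjusted p = 1.12e-09), beside 3.07 in the control arm. Some enzymes of this cycle also work in glycolysis or sugar formation, and the list does not separate these.

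Next in size among the rises was Cre08.g380250 (2.05), and then Cre01.g010900 (2.02), Cre03.g185550 (1.98), Cre02.g120150 (1.41) and Cre04.g229300 (1.06). The adjacent loci Cre02.g120100 and Cre02.g120150 (chromosome 2, 6936683 to 6941921 and 6941968 to 6943439) moved in opposite directions. The former fell from 102, 65.4 and 128 CPM to 17.8, 10.7 and 11.7 CPM (-2.88, SE 0.72, edgeR adjusted p = 0.00284), and the latter rose from 7282, 6199 and 9072 CPM to 22200, 18830 and 18760 CPM (edgeR adjusted p = 0.000148). Cre01.g029300 had the largest fall, from 10.4 to 21.9 CPM down to 0.179 to 0.341 CPM (-5.72). Proteins of carbon dioxide uptake and hydration, which concentrate the substrate of the cycle, had 6 of 7 tested members down and none up (median -1.79), led by Cre04.g223100, which fell by 4.52. With nitrite 3 h number 2 left out, 5 members fell and the median was -1.49. In the control arm 5 of the 7 fell and none rose, with all libraries (median -1.30). In that list 5 more loci had 1 to 45 reads over all libraries.

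**Figure D4:**
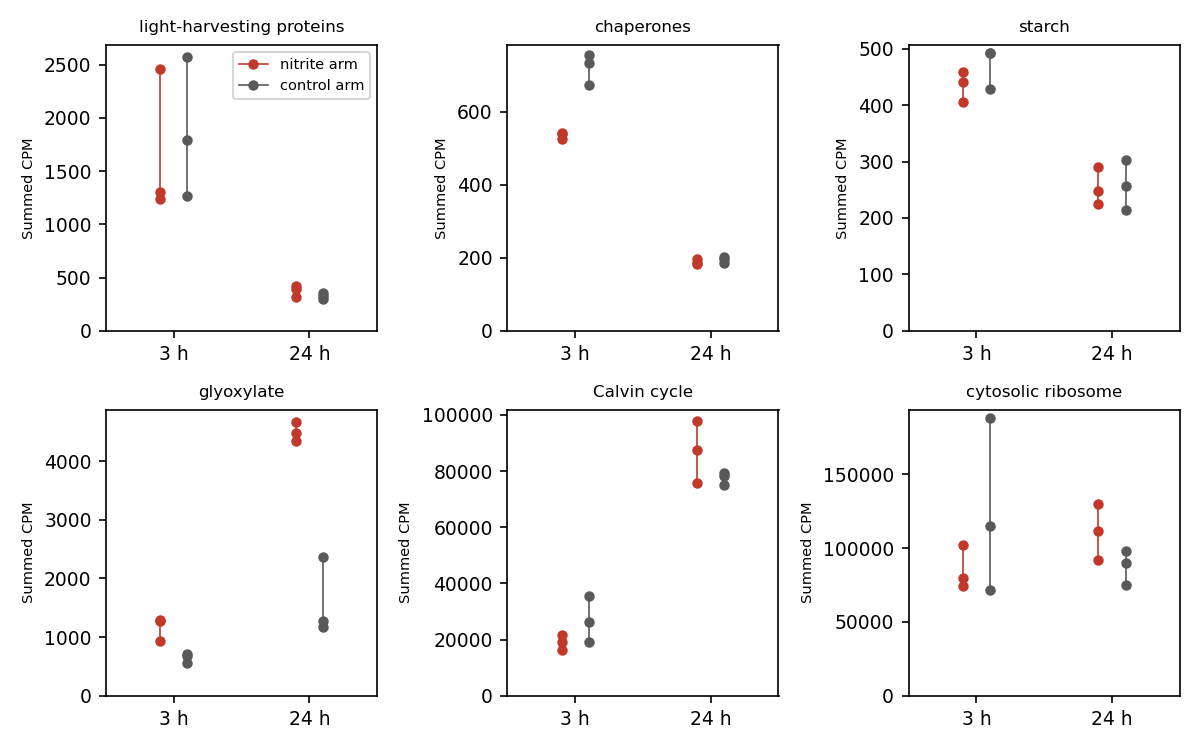
Summed CPM of the tested members (vertical axis, from 0) of 6 gene lists at 3 h and 24 h, with 1 point per library for the nitrite arm (red) and the control arm (grey) and a line over each group's range. The light-harvesting, chaperone and starch sums fall in both arms without overlap, and the glyoxylate and Calvin cycle sums rise.

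Protein upkeep changed on both sides. Chaperones, which fold and refold proteins, had 11 of 13 members down and none up (median -1.79), and their summed level went from 525 to 541 CPM to 183 to 197 CPM. Cre12.g514850 fell by 4.07, from 7.72, 8.42 and 7.16 CPM to 0.359, 0.511 and 0.472 CPM, and Cre17.g741450 by 3.62. The control arm had 8 falls. Without nitrite 3 h number 2 there were 9 falls in the nitrite arm. With all libraries no member differed between the arms, and without the 3 that stand apart Cre08.g372100 and Cre09.g386750 did, by 1.05 and 1.37 (edgeR adjusted p = 0.0143 and 0.00872).

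Of 13 proteins of the cytosolic ribosome 10 rose and none fell (median 0.83). Cre12.g520500 rose from 2055, 1600 and 2366 CPM to 6408, 5047 and 4975 CPM, by 1.45 (SE 0.24, edgeR adjusted p = 2.80e-05), and Cre10.g417700 by 1.16. These calls depend on scaling and on 1 library. With library totals alone 2 members rose and 3 fell (median 0.17). Without nitrite 3 h number 2 there were 5 rises and no fall, at a median of 0.67, and without the 3 libraries that stand apart 9 rises and no fall, at 0.68. In the control arm none rose and 2 fell, at a median of -0.07, and without the 3 libraries that stand apart 2 rose and none fell. The test of the difference between the arms called no member. With TMM all the differences were positive, 0.68 to 1.15 (median 0.89). With library totals alone they were -0.20 to 0.21 (median 0.05).

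Enzymes that remove peroxide and superoxide, by-products of respiration and photosynthesis, had 6 of 9 members down and 2 up (median -1.07). Cre06.g257601 fell by 4.84, from 39.9, 71.4 and 35.9 CPM to 2.15, 2.39 and 0.630 CPM. Cre09.g417150 rose by 1.47, from 153, 304 and 193 CPM to 621, 534 and 641 CPM, and Cre16.g688550 by 0.90. The median and the summed level moved in opposite directions, since the sum rose from 298 to 516 CPM up to 624 to 738 CPM. When nitrite 3 h number 2 was left out, 5 members fell, 3 rose and the median was -0.97. In the control arm 5 members fell and 2 rose (median -1.22). The change differed between the arms for no member with all libraries, and for Cre09.g417150 and Cre10.g458450 without the 3 that stand apart (edgeR adjusted p = 0.039 and 0.0462).

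Of 4 tubulin loci, which encode the microtubules of the flagella and the spindle, none was called (changes from -0.20 to 0.74). Number 2 was the highest of the 3 h libraries for each, and without the 3 libraries that stand apart 3 rose. In the control arm 1 fell with all libraries and 2 without those 3. The change differed between the arms for none with all libraries (median difference 1.10), for 2 without nitrite 3 h number 2 (1.70) and for all 4 without the 3 libraries (1.46), each more positive with nitrite.

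For a few members the change itself differed between the arms, and these were named for that difference after their values were seen. Cre12.g498550, in the chlorophyll list, moved in opposite directions. With nitrite it rose from 3.22, 3.64 and 2.84 CPM to 8.97, 9.20 and 8.19 CPM (1.43, edgeR adjusted p = 6.71e-05). Without nitrite it fell from 5.14, 5.67 and 6.67 CPM to 1.57, 1.12 and 1.77 CPM (-1.95, edgeR adjusted p = 2.64e-05). The difference of 3.38 (SE 0.39, edgeR adjusted p = 2.77e-05) was called in each of the 12 fits that left out a library and under each scaling.

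Of the photosystem list, 4 members changed more positively with nitrite, and 6 did so without the 3 libraries that stand apart. For Cre06.g261000 the difference was 2.31 (edgeR adjusted p = 0.00591). Cre02.g082500 stood at 376, 759 and 397 CPM and then at 271, 288 and 246 CPM with nitrite, while in the controls it went from 341, 528 and 1060 CPM to 55.5, 44.6 and 75.2 CPM. The control libraries of 24 h thus lay below all others, and the difference was 2.53 (edgeR adjusted p = 0.011). The fall with nitrite, 0.93, was lost in 4 of 6 fits that left out a library. Cre10.g452100 went from 7.66 to 14.4 CPM to 3.59 to 4.94 CPM with nitrite and from 13.3 to 16.3 CPM to 0.261 to 1.91 CPM without (difference 2.76, edgeR adjusted p = 0.00468). Cre11.g467689 differed by 1.12 (edgeR adjusted p = 0.0443), a call lost in 9 of 12 such fits.

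In the Calvin list the rise of Cre08.g380250 from 441, 416 and 503 CPM to 2016, 1870 and 1729 CPM compared with 395 to 744 CPM and then 644 to 1119 CPM in the controls, a difference of 1.46 (edgeR adjusted p = 0.0143). The fall of Cre07.g346050 was deeper with nitrite by 2.41 (edgeR adjusted p = 0.0177). In the controls it kept 1.18 to 1.64 CPM at 24 h.

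**Figure D5:**
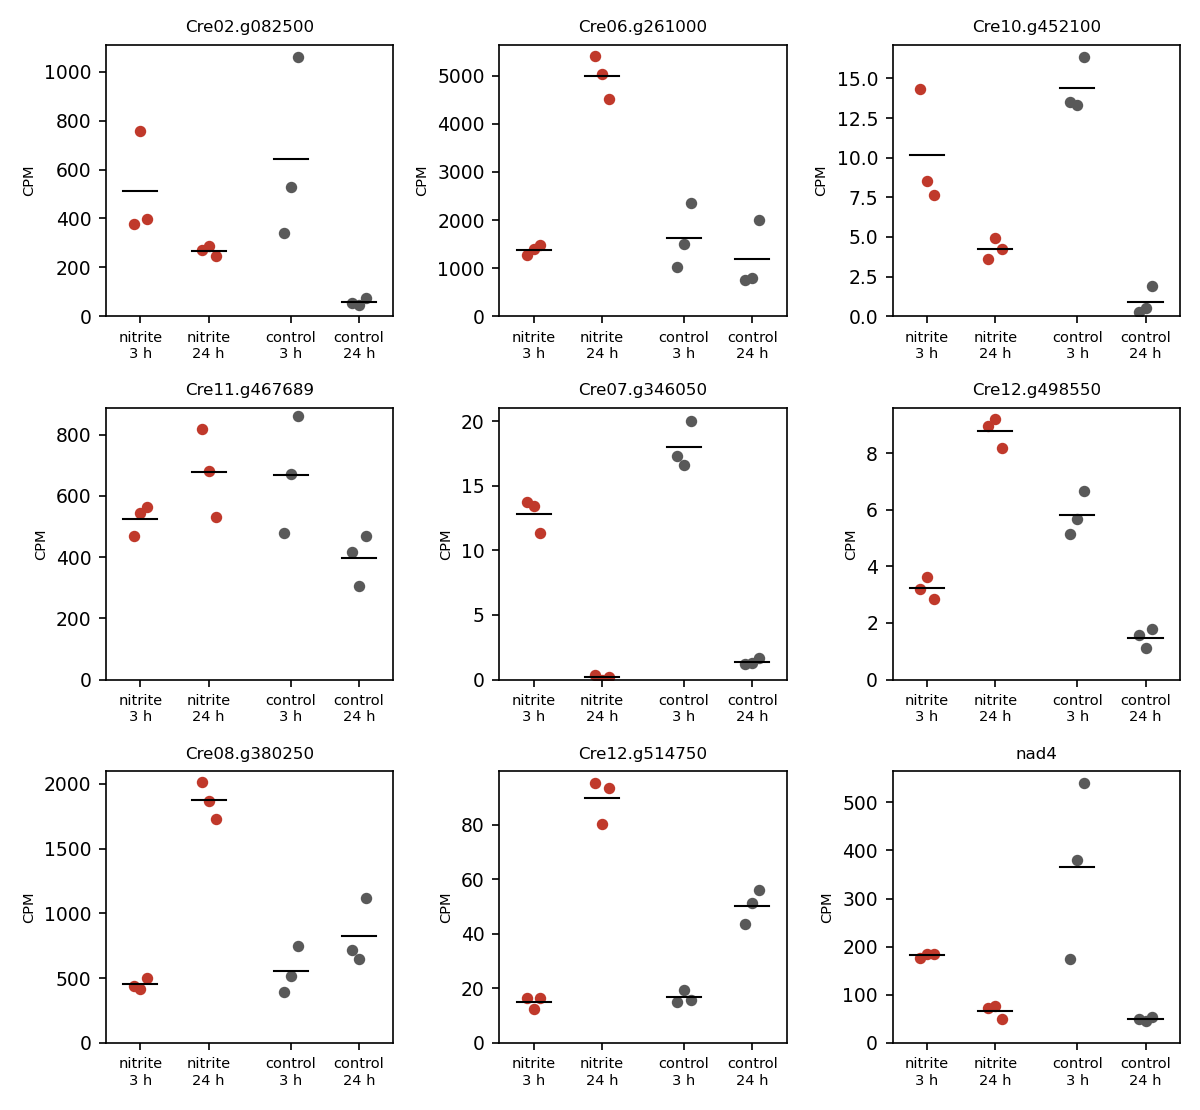
CPM per library (points) and group mean (bar) at 3 h and 24 h in the nitrite arm (red) and the control arm (grey) for the 8 list members and nad4, whose change differed between the arms; each vertical axis starts at 0. Cre12.g498550 rises with nitrite and falls without, and Cre02.g082500 and Cre10.g452100 fall less with nitrite.

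The tables name 25 organelle features, all of them genes of mitochondrial complexes, rRNA fragments, tRNAs and a reverse transcriptase-like protein, and 3 had enough reads to test. Poly(A) selection is not made for organelle RNA, so their levels also depend on how much of it was carried along. The transcript of nad4, a subunit of respiratory complex I, was at 176, 184 and 186 CPM at 3 h and at 71.4, 76.2 and 49.8 CPM at 24 h, a fall of 1.47 (SE 0.30, edgeR adjusted p = 0.000255) with no overlap. In the control arm it fell by 2.88, from 174, 380 and 540 CPM, of which the highest was the library rich in multiple alignments. The difference of 1.41 (edgeR adjusted p = 0.0492) was lost in 10 of 12 fits that left out a library. The transcripts of cob, the cytochrome b of complex III, and nad5, of complex I, overlapped between the times and were not called, at -0.14 and -0.06. They fell in the control arm, by 2.10 and 4.47 (edgeR adjusted p = 0.00417 and 0.00259), where the same library was the highest of its group at 238 and 97.2 CPM. Without it these falls were called at -0.91 and -2.01 (edgeR adjusted p = 0.0322 and 0.0272), and the differences between the arms were not called with or without it.

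Position and size of the genes were described without a test. Risen genes had a median span of 4332 bp from start to end, fallen genes 4973 bp and genes not called 4712 bp. Risen genes were also higher in mean level, a mean that includes the libraries compared. Within each of the 4 level classes the median span of the risen genes was below that of the fallen ones, for instance 4236 against 4922 bp in the highest class. By chromosome the share of risen genes was 25.3% to 28.6% and of fallen genes 27.1% to 32.9%, except on chromosome 15, where 26 of 153 tested genes rose (17%) and 61 fell (39.9%). The longest run of neighbouring tested genes that all fell had 8 members on chromosome 10 (2625882 to 2680723), with a median change of -1.62, and 5 of them fell in the control arm too. Runs of 7 risen genes lay on chromosomes 3, 6 and 7. In the one on chromosome 6 (5717605 to 5754742) all 7 rose in both arms, with a median change of 1.0 in each. With 27.1% of all tested genes risen and 30.6% fallen, runs would also arise in a random order of genes. Whether these are longer or more frequent was not tested.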

How the data were processed

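The deposited tables hold counts of reads per gene, whole numbers made by the authors with TopHat2 2.0.13 and HTSeq per the submitters' processing notes. Libraries were stranded TruSeq mRNA libraries, per the labels' protocols. Not given in the sources used here are the build, the strand option of the counting and the handling of multiple alignments. The 5 summary lines per table (0.892% to 1.67% of reads outside genes, 0.0597% to 0.439% ambiguous, 16.7% to 36.5% with several alignments) were left out. Totals over genes were 6695500 to 8469882 reads.

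Genes were filtered by edgeR's filterByExpr per group (minimum count 10). All 18 libraries were fitted together with edgeR 4.0.16 in R 4.3.3 (TMM, robust quasi-likelihood test, 12 residual degrees of freedom), after a trial on simulated counts. DESeq2 1.42.0 and limma 3.58.1 (voom) were alternatives. Libraries of a group differed by a chi-square of at least 4.02 per degree of freedom, so none was counted as a repeat.

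Of 17741 nuclear identifiers, 17738 matched the reference gene table (Chlamydomonas_reinhardtii_v5.5), which holds 0 symbols and gave the coordinates. Protein families were to be read by sequence signatures, which could not be applied without protein sequences. Instead 5 lists of loci were used, and 14 were entered from memory after the tables were in hand, before the values of those loci were looked up. The files cannot check their roles. The comparison and the lists were chosen with earlier results of these data known. Genes named without a list are the largest 2 rises and 2 falls among called genes without overlap between the times and with a mean log2 CPM of at least 1. Of lists with up to 12 tested members the called ones were named, of longer lists the largest 2 each way, and all tested organelle genes. Others were chosen after their values were seen.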

Additional observations from a re-analysis of the deposited data

Results flagged for a closer look

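These results stood out because the change from 3 h to 24 h differed between the nitrite and the control arm by edgeR's test of that difference, given here as nitrite change minus control change on the log2 scale.

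In the photosystem and electron carrier list they were Cre10.g452100 (2.76, SE 0.53), Cre02.g082500 (2.53, SE 0.55), Cre06.g261000 (2.31, SE 0.46) and Cre11.g467689 (1.12, SE 0.32). In the chlorophyll list they were Cre12.g498550 (3.38, SE 0.39), which rose by 1.43 with nitrite and fell by 1.95 without, and Cre07.g346050 (-2.41, SE 0.58). The Calvin cycle list had Cre08.g380250 (1.46, SE 0.34) and the tricarboxylic acid cycle list Cre12.g514750 (0.99, SE 0.24). The mitochondrial transcript nad4 differed by 1.41 (SE 0.41). All but Cre07.g346050 were more positive with nitrite.

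Without scaling factors the differences of Cre11.g467689 (0.30), Cre08.g380250 (0.65), Cre12.g514750 (0.27) and nad4 (0.48) were not called. Without the 3 libraries that stand apart that of nad4 was 1.04 and not called. Among fits without 1 library, the call of Cre07.g346050 was lost without nitrite 24 h number 2 or number 3, that of Cre12.g514750 without control 24 h number 1 or control 3 h number 2, and that of Cre08.g380250 without control 24 h number 2. The control 3 h library with 36.5% multiple alignments was the highest of its group for nad4, at 540 CPM, and for Cre02.g082500, at 1060 CPM. Without that library the difference of Cre02.g082500 was 1.98 and still called (edgeR adjusted p = 0.0264), that of nad4 was 1.03 and not called (edgeR adjusted p = 0.139), and that of Cre11.g467689 was 0.92 and not called (edgeR adjusted p = 0.105).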

How the results depend on the processing

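The count of the nitrite arm stayed between 6739 (minimum count 30) and 8335 (without the 3 libraries that stand apart) over all alternatives, and between 7104 and 7589 when 1 library was left out. DESeq2 gave 7704 and voom 7688. The control arm gave 4620 to 5206 with 1 library left out, and 3973 without scaling factors. The difference between the arms was 750 genes with all libraries, 393 to 1160 with 1 library left out, 1337 without the 3 libraries and 1131 without scaling factors. Of the 750 genes, 375 were also among the 1131 and 658 among the 1337. The cause was not tested.

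Without scaling factors 6 changes of named genes that were called with or without those factors changed sign. In the nitrite arm these were Cre11.g476750 (-0.02), Cre03.g155001 (-0.03), Cre14.g621450 (-0.02), Cre06.g272800 (-0.65) and Cre04.g211800 (-0.41), and for the difference Cre01.g010900 (-0.68). Of changes called in neither fit, 14 in the nitrite arm, 6 in the control arm and 64 differences also changed sign.

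The replicate block, with replicate number within arm, gave 7564 genes in the nitrite arm, 5315 in the control arm and 646 for the difference. Deviations of same-numbered libraries at 3 h and 24 h correlated at 0.00, 0.18 and 0.07 in the nitrite arm and -0.05, 0.08 and 0.05 in the control arm, and not every library correlated best with its own number, so the numbers, which the labels do not tie to a flask, were not taken to pair libraries. Among the named genes, the block left uncalled the nitrite arm changes of Cre13.g592200 (-1.59, edgeR adjusted p = 0.0709) and Cre04.g222750 (-1.87, 0.0587), the differences of Cre11.g467689 (1.08, 0.0638) and nad4 (1.24, 0.0507), and the control arm changes of Cre09.g396600, Cre17.g746997, Cre09.g396700, Cre06.g272800 and Cre04.g211800. The control arm rise of Cre08.g380250 was called with it (0.59, 0.0215).

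Fits on the control libraries alone (5893) and on the 12 libraries of both times (592) were added after seeing the data. At 7669176 to 8453971 reads, genes near 1 CPM rest on few reads, and small changes in them were not detectable at this depth.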
